A study of Mus musculus with 12 samples.

Results

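The comparison set 3 arrays of TKO-Ras mouse embryonic fibroblasts (MEFs) against 3 arrays of wild-type (WT) MEFs, which are 6 of the 12 arrays of the series. The arrays were chosen by their labels alone, and each gene was followed through 1 probe set, the one whose mean over the 12 arrays was highest. Of 45037 probe sets tested, 34945 were assigned to 1 gene and gave 18193 genes. The WT cells carried no engineered change that the labels name. The TKO-Ras cells lacked Rb1, p107 (Rbl1) and p130 (Rbl2) and in addition carried RasG12D, a Ras protein locked in its active state. The TKO cells, with the same deletions and no added Ras, were 3 further arrays and were used to show which values differed between TKO-Ras and TKO. The remaining 3 arrays of the series, labelled Rb1 deletion (Rb1KO), entered the fit and the choice of probe sets. Their values are not shown, and groups are compared below among WT, TKO and TKO-Ras only. All cells were untreated and were harvested while growing exponentially. The Ras isoform, the promoter that drove it and the source of the WT cells were not given in the sources used here. The TKO cells came from another laboratory, so origin and genotype cannot be told apart. The samples were labelled as biological replicates with no word on whether each had its own embryo or culture, and the p-values measure only the spread between these samples.

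Rb1, p107 and p130 bind E2F transcription factors and hold back the genes of DNA replication, and mitotic genes are held back through a complex built on p107 or p130. Ras passes signals from growth factor receptors to the kinase ERK, whose outputs include transcription factors of the Ets and Fos families as well as inhibitors that feed back on the pathway. Fibroblasts that lose the Rb proteins escape G1 arrest, and an activated Ras added to such cells is a standard model of transformation, in which matrix, contractile and adhesion genes are commonly followed because fibroblasts are defined by them.

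Values are log2 intensities after RMA, a procedure that corrects the background, equalises the arrays and combines the probes of a probe set, so a difference of 1 is a 2-fold change. A gene passed the test when its Benjamini-Hochberg adjusted p from limma was under 0.05. The fit used 1 spread per gene over all 4 groups. A wide WT spread therefore also weighs on the test of TKO-Ras against TKO. The background level was 5.13, the 95th percentile of 44 probe sets for olfactory receptors, and a group that lay at or below it on every array gives only a bound, written as "at least N-fold". Between 52.9% and 54.2% of probe sets lay above that level on the WT, TKO and TKO-Ras arrays. Each TKO-Ras array correlated with the others of its group at a mean of 0.991 to 0.993, whereas WT replicate 3 correlated with the other WT arrays at a mean of 0.974. Values without it are given for some results only, and a count printed without such a value can also change. The 3' minus 5' difference of the actin control probe sets was 0.135 to 0.224 on the WT arrays and 0.197 to 0.288 on the TKO-Ras arrays, and the part of RNA quality in the results was not tested. In cultures of this kind, fewer cells of a type and less RNA per cell cannot be told apart.

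The step from WT to TKO-Ras moved a large part of the transcriptome. Of 18193 genes, 3525 (19.4%) were higher and 2601 (14.3%) were lower in TKO-Ras than in WT. The median over all genes was 0.11. By 2-fold or more, 1225 genes were lower and 1056 higher. The largest changes ran mostly downward, since 50 genes were lower by 32-fold or more and 15 genes were higher by as much. For TKO against WT, 2472 genes (13.6%) were higher and 1802 (9.9%) lower. The direct comparison of TKO-Ras with TKO gave 580 higher genes (3.19%) and 759 lower genes (4.17%). These comparisons share arrays, and their values are set side by side below.

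The labels were checked on the targeted genes. Rbl1 stood at 8.23, 8.32 and 8.18 on the WT arrays and at 4.0, 4.99 and 4.46 on the TKO-Ras arrays, which is at least 8.65-fold lower. Rbl2 differed by −2.69 (SE 0.217, adjusted p = 5.9e-06) and Rb1 by −0.94 (SE 0.143, adjusted p = 0.00054). Each deleted gene was lower in TKO-Ras with no overlap of the arrays, although only 1 of the 2 Rb1 probe sets and 2 of the 4 Rbl1 probe sets passed. Whether the probes lie in the deleted exons was not given in the sources used here. Nras, a member of the Ras family, stood at 10.31, 10.25 and 10.01 in WT and at 10.92, 10.68 and 10.79 in TKO-Ras, a difference of 0.61 (SE 0.139, adjusted p = 0.0071). Against TKO the Nras difference was 0.43 (adjusted p = 0.11). The added transgene itself was not measured.

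As fibroblasts the TKO-Ras cells kept some defining markers and lost others. Of 14 fibroblast markers measured, 6 were lower, 1 was higher and 7 did not pass, against 14.3% lower and 19.4% higher over all genes. Vim, the intermediate filament of mesenchymal cells, ranged from 14.13 to 14.47 in WT and from 14.38 to 14.51 in TKO-Ras (difference 0.10, adjusted p = 0.55). The mesenchymal regulator Prrx1 differed by 0.05 (adjusted p = 0.95) and the PDGF receptor Pdgfra by −0.16 (adjusted p = 0.91), with WT arrays that ran from 6.71 to 11.54 for Pdgfra. Thy1, a surface protein used to sort fibroblasts, stood at 11.10, 10.41 and 10.99 in WT and at 4.77, 4.92 and 4.74 in TKO-Ras, so it was at background there and at least 51.9-fold lower. The loss of Thy1 was already complete in TKO (4.80, 4.76 and 4.64). The summed level of the 14 markers was 16.63 to 16.79 in WT and 16.02 to 16.09 in TKO-Ras.

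Many markers of other cell types were at background. On every WT and TKO-Ras array, this held for 7 of 12 muscle markers, 7 of 12 endothelial markers, 7 of 12 epithelial markers, 6 of 12 macrophage and leukocyte markers, 5 of 10 cartilage and bone markers, 3 of 8 adipocyte markers, 3 of 5 mesothelial markers, 2 of 3 erythroid markers and 4 of 13 neural and glial markers. A few members passed the test. Cd14, the most abundant of the 12 macrophage and leukocyte markers, was 1.82 higher (adjusted p = 2.1e-05). It ranged from 6.13 to 6.78 in WT and from 8.16 to 8.59 in TKO-Ras, and the other 11 did not pass. The cardiac troponin Tnnt2 was 3.26 higher (adjusted p = 0.011) and the muscle regulator Myog passed with all of its arrays at background, while Myod1, Myf5, Des and Ckm did not pass. Acta1, the most abundant muscle marker in WT, ranged from 6.44 to 9.83 there and from 6.47 to 6.99 in TKO-Ras. Its difference of −1.84 did not pass (adjusted p = 0.06). The keratin Krt19 was 3.10 higher (adjusted p = 0.01), Krt8 was 0.54 higher, and Cdh1 and Krt18 were at background in every WT and TKO-Ras array. The mesothelial surface protein Msln was at least 16.4-fold higher, with Wt1 and Lrrn4 at background. Map2, a microtubule protein of neurons, stood at 10.28, 10.18 and 10.72 in WT and was at least 38.3-fold lower in TKO-Ras. Of the 13 neural and glial markers, 2 were lower (Map2 and Fabp7) and 2 higher (Dcx and Sox1), against 14.3% and 19.4% of all genes. The median of that list was 0.17, and Nes differed by 0.07 (adjusted p = 0.9). The cartilage collagen Col2a1 was at least 8.38-fold lower and the adipocyte regulator Pparg at least 3.27-fold lower. Fabp4, the most abundant adipocyte marker, differed by −1.60 (adjusted p = 0.015), a sign that did not hold with only probe sets without a suffix. Summed over each list, the level in WT and TKO-Ras was 8.63 to 10.32 and 9.32 to 9.97 for muscle, 9.03 to 9.92 and 10.64 to 11.23 for epithelium, 6.94 to 7.10 and 9.29 to 9.51 for mesothelium, and 11.20 to 11.70 and 10.45 to 10.59 for neural and glial markers. In the same order it was 9.36 to 10.48 and 8.66 to 9.02 for adipocytes, 9.15 to 9.27 and 8.12 to 8.27 for cartilage and bone, 9.01 to 9.20 and 8.87 to 8.99 for endothelium, 8.69 to 8.75 and 9.28 to 9.53 for macrophages and leukocytes, and 6.76 to 6.81 and 6.94 to 7.17 for erythroid cells. Their part in the other results was not tested.

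The cultures also differed in sex-linked genes. Xist, the RNA of the inactive X chromosome, stood at 10.73, 8.79 and 11.57 in WT, and Eif2s3y, a Y-linked translation factor, at 8.63, 9.12 and 4.91. Both were at or below background on all TKO-Ras and TKO arrays, so the sex of the cells and the genotype cannot be told apart.

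**Figure D1:**
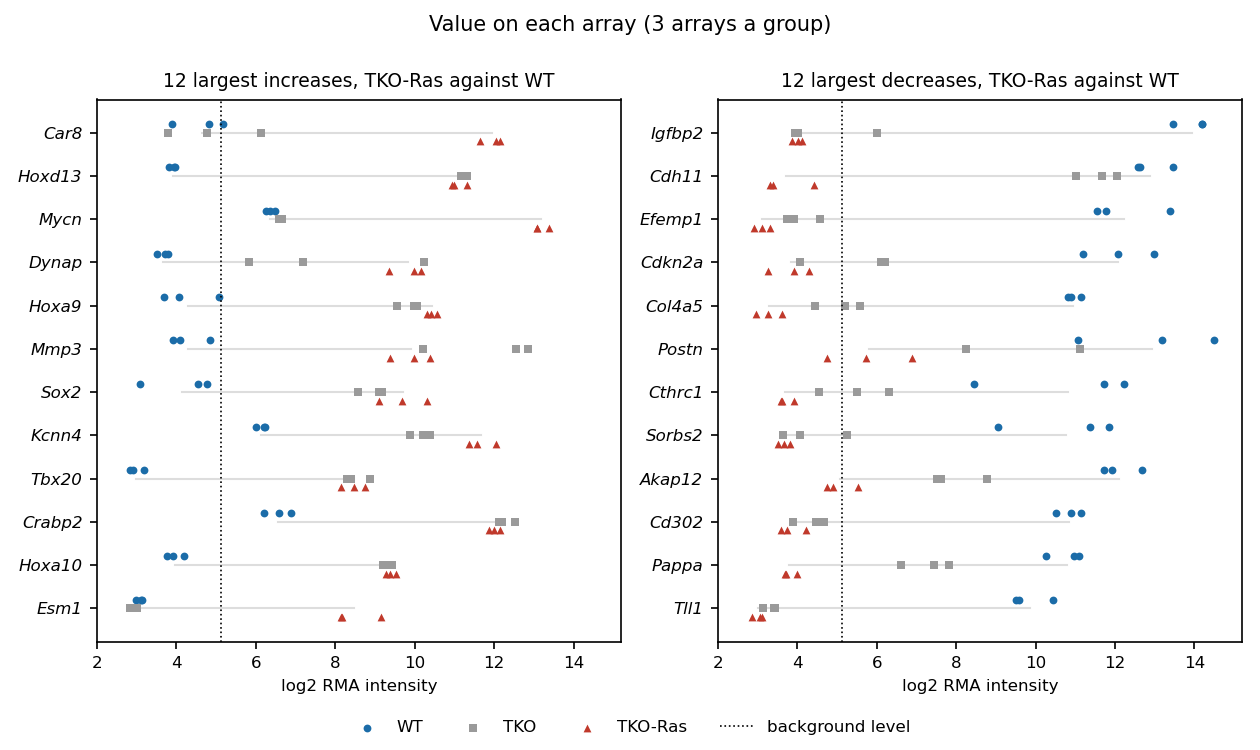
Log2 RMA intensity (x axis) on each array for the 12 genes with the largest increase (left) and the 12 with the largest decrease (right) in TKO-Ras against WT, with 3 arrays each of WT (circles), TKO (squares) and TKO-Ras (triangles). Grey lines join the WT and TKO-Ras means and the dotted line is the background level of 5.13. Car8, Mycn and Esm1 sit with WT in TKO and apart from both in TKO-Ras, and Cdh11 sits at 3.30 to 4.43 in TKO-Ras and at 11.03 or more in the other groups.

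Some of the largest increases were already present in TKO, and others were seen in TKO-Ras and in neither WT nor TKO. Mycn, a proto-oncogene of the Myc family that is silent in most adult tissue, stood at 6.35, 6.26 and 6.47 in WT, at 6.66, 6.63 and 6.58 in TKO and at 13.07, 13.39 and 13.09 in TKO-Ras. Its difference from WT was 6.83 (SE 0.117, adjusted p = 5.7e-11) and from TKO 6.56 (SE 0.117, adjusted p = 1.8e-10). No array of TKO-Ras came near an array of WT or TKO. Car8, a carbonic anhydrase-related protein without enzyme activity, stood at 5.18, 3.88 and 4.82 in WT, at 6.13, 3.78 and 4.78 in TKO and at 11.64, 12.04 and 12.14 in TKO-Ras, a difference from TKO of 7.04 (adjusted p = 1.4e-05). Esm1, a secreted proteoglycan, was at background in WT and TKO and at 8.16, 8.15 and 9.14 in TKO-Ras, at least 10.2-fold higher than in either. Kcnn4, a calcium-activated potassium channel, was 5.51 above WT, with 4.0 reached in TKO and a further 1.51 in TKO-Ras (adjusted p = 0.0036).

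The other large increases were already present in TKO. Hoxd13 was at least 61.8-fold, Hoxa9 at least 39.3-fold and Hoxa10 at least 19.2-fold above WT in TKO-Ras, and none of these passed against TKO. Sox2, a transcription factor of stem and neural progenitor cells, was at background on all WT arrays and at 9.67, 9.11 and 10.31 in TKO-Ras, at least 23.6-fold higher, with 8.58 to 9.18 in TKO. Tbx20, a T-box factor of the heart, stood at 8.48, 8.15 and 8.74 in TKO-Ras with all WT arrays at background, and the retinoic acid-binding protein Crabp2 was 5.45 above WT. Dynap was at least 26.0-fold higher in TKO-Ras, but its TKO arrays were spread over 10.23, 7.19 and 5.83. The stromelysin Mmp3 was at least 27.4-fold above WT and stood at 10.21 to 12.86 in TKO.

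Neighbouring genes, chosen after the values were seen, were compared between TKO-Ras and TKO. On chromosome 12, Ddx1, the nearest measured gene on one side of Mycn, differed by 0.10 (adjusted p = 0.78) and Nbas, the next, by −0.12 (adjusted p = 0.73), whereas the 2 measured genes on the other side were at background. Against WT, Ddx1 was 0.53 higher (adjusted p = 0.016). Rab2a, beside Car8 on chromosome 4, differed by 0.36 (adjusted p = 0.11). On the other side, 8430436N08Rik, the nearest, differed by −1.35 (adjusted p = 0.22) and Tox, the next, by −2.28 (adjusted p = 0.058). Against WT, Tox was lower by the test (−2.63, adjusted p = 0.0085) and 8430436N08Rik did not pass (−0.69, adjusted p = 0.39). Gm8273, the next gene after Rab2a, was 0.64 above WT (adjusted p = 0.018). An array of this kind does not measure copy number.

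Of the 12 largest decreases, all but Postn and Akap12 were at background on every TKO-Ras array. Igfbp2, a secreted binding protein of insulin-like growth factors, stood at 14.20, 14.19 and 13.46 in WT and at 4.03, 4.11 and 3.87 in TKO-Ras, at least 450-fold lower. Efemp1 (fibulin-3) was at least 137-fold lower and Cd302, a C-type lectin receptor, at least 52.6-fold lower. Cdh11, the cadherin of mesenchymal cells, stood at 12.64, 12.59 and 13.45 in WT, at 11.03, 12.04 and 11.67 in TKO and at 3.30, 4.43 and 3.39 in TKO-Ras. It was thus at least 216-fold lower than in WT and at least 87.2-fold lower than in TKO (fitted difference from TKO −7.87, adjusted p = 9.6e-07). Cdh2 (N-cadherin), which shares its junctions, differed from TKO by 0.47 (adjusted p = 0.17) and from WT by −0.57 (adjusted p = 0.032).

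Further large decreases differed in how far TKO had already gone. The metalloproteinase Pappa, which cleaves an IGF-binding protein, had a mean of 10.78 in WT and 7.29 in TKO and was at background in TKO-Ras, at least 4.46-fold below TKO (adjusted p = 0.00011). The scaffold protein Akap12 differed by −7.04 from WT and by −2.90 from TKO (adjusted p = 0.00061). The basement membrane collagen Col4a5 was at least 56.5-fold below WT, with TKO already near background. Tll1, Sorbs2 and Cthrc1 were at background in TKO-Ras, at least 26.2-fold, 49.4-fold and 51.0-fold below WT, and WT replicate 3 was the lowest WT array for Sorbs2 (9.05) and Cthrc1 (8.45). Postn, a matrix protein of wounds and tumour stroma, stood at 13.19, 11.08 and 14.50 in WT and at 6.90, 5.73 and 4.76 in TKO-Ras, a difference of −7.13 (SE 0.910, adjusted p = 0.00016).

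**Figure D2:**
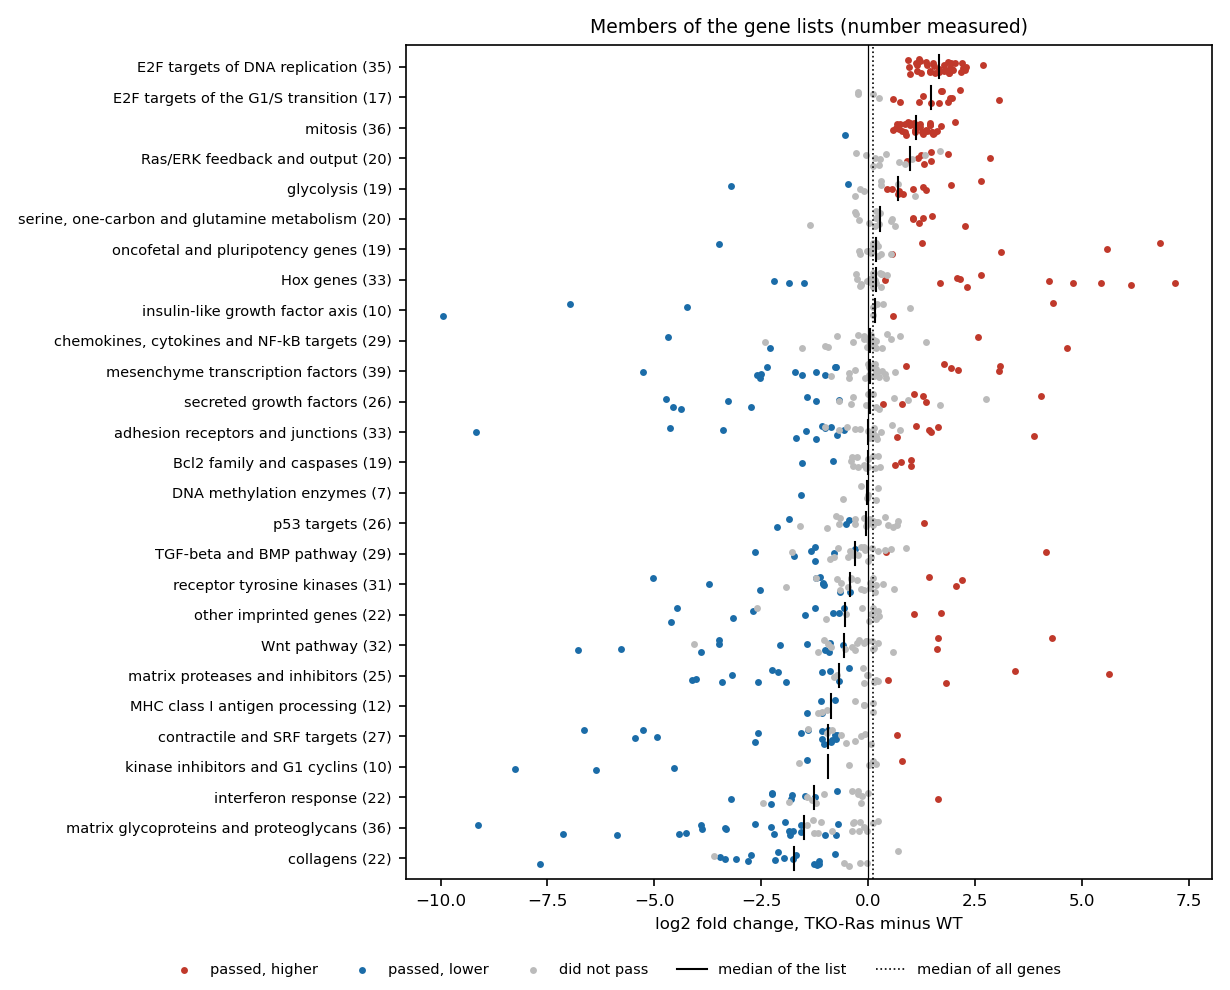
Log2 fold change in TKO-Ras against WT (x axis) of every measured member of 27 gene lists, ordered by the median of the list (black bar), with the number of members in brackets; red and blue points passed the test as higher and lower, grey points did not pass, and the dotted line is the median of all genes (0.11). The replication, G1/S and mitosis lists lie to the right with little spread, and the collagen and matrix lists lie to the left with members down to −9.12.

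The cell division genes rose almost without exception. All 35 measured E2F targets of DNA replication were higher in TKO-Ras than in WT, with a median of 1.66 and a range of 0.93 to 2.68. Of 17 E2F targets of the G1/S transition, 13 were higher (median 1.46), and of 36 mitosis genes, 35 were higher (median 1.11) and 1 was lower. Without WT replicate 3, 33 mitosis genes were higher. Over all genes 19.4% were higher. Cdc6, which loads the replicative helicase, stood at 7.42, 7.31 and 6.42 in WT and at 9.84, 9.58 and 9.77 in TKO-Ras (difference 2.68, SE 0.215, adjusted p = 5.6e-06). Thymidine kinase Tk1 differed by 2.25, the helicase subunit Mcm3 by 2.17, the mitotic kinase Aurkb by 2.02 and the chromosomal passenger Birc5 (survivin) by 1.71. Arrays of the groups did not overlap for any of these, and WT replicate 3 was the lowest WT array for each of them. The lower mitosis gene was Pttg1 (securin, −0.54, adjusted p = 0.039), a call that was lost when any array other than WT replicate 3 was left out.

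Between TKO-Ras and TKO these lists differed little. Against TKO, none of the 35 replication genes was higher and 1, thymidylate synthase Tyms, was lower (−0.87), against 3.19% and 4.17% of all genes, and none of the 36 mitosis genes passed in either direction. The medians against TKO were −0.08 for the replication list and 0.00 for the mitosis list. In the G1/S list the 2 that rose further were E2f8 and E2f2, which encode an inhibitory and an activating E2F factor. E2f8 stood at 7.51, 7.53 and 6.94 in WT, at 9.40, 9.35 and 9.54 in TKO and at 10.35, 10.50 and 10.29 in TKO-Ras, so that each group lay above the one before. The difference between TKO-Ras and TKO was 0.95 (adjusted p = 0.004) for E2f8 and 0.76 for E2f2.

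The promoters of these lists differed in the motifs they hold. RefSeq promoters of the GRCm38.p6 build, from 250 bases before to 50 after a transcript start, were searched on both strands for the E2F letters TTTCCCGC, TTTCGCGC, TTTGCCGC and TTTGGCGC, for the CHR letters TTTGAA (cell cycle genes homology region, the element of late cell cycle genes) and for CCAAT. An E2F match was present in 13 of 35 promoters (37.1%) of the replication list and in 2 of 33 (6.1%) of the mitosis list, against 3.2% of the promoters of all measured genes. The CHR letters were present in 26 of 33 promoters (78.8%) of the mitosis list and in 4 of 35 (11.4%) of the replication list, against 13.4%. CCAAT stood in 75.8% of the mitosis promoters, against 37.4%. No motif searched contains another. The replication lists were drawn up as E2F targets, so their share is no independent finding. Of the Ras/ERK list, 1 of 14 promoters (7.1%) held the AP-1 letters TGANTCA, against 6.4%. To show where the element lies, the 150 bases before the start are printed for 3 replication genes and 3 mitosis genes. They had the largest increases among those with a match there, with promoters of 1 chromosome left out of the choice. Capitals mark the E2F match in Cdc6 (chr11:98908001-98908150, plus strand), Mcm5 (chr8:75109359-75109508, plus strand) and Orc1 (chr4:108579304-108579453, plus strand) and the CHR match in Ncapg (chr5:45669775-45669924, plus strand), Ect2 (chr3:27153879-27154028, minus strand) and Espl1 (chr15:102296143-102296292, plus strand).
Cdc6: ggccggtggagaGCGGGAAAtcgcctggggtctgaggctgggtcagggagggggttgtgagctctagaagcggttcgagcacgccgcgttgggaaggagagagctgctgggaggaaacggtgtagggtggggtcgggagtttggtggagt
Mcm5: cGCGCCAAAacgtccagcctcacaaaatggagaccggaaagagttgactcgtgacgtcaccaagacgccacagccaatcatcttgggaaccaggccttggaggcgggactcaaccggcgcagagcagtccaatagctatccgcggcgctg
Orc1: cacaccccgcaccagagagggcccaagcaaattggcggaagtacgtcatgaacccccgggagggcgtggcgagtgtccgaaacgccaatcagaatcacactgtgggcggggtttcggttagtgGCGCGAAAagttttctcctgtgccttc
Ncapg: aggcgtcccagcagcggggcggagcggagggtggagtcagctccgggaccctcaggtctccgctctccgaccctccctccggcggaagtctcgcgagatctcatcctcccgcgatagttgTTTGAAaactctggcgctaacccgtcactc
Ect2: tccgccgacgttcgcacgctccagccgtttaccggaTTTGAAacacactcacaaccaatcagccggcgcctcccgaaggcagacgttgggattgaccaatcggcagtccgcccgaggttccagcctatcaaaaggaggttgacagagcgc
Espl1: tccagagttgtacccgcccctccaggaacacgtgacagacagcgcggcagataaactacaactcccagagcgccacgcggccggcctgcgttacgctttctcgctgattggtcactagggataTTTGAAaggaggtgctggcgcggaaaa
The matches begin 138, 149 and 27 bases before the start in Cdc6, Mcm5 and Orc1, and 30, 114 and 27 bases before it in Ncapg, Ect2 and Espl1. Mcm5, another subunit of the helicase, differed by 2.03 and the origin-binding protein Orc1 by 1.94 from WT. The condensin subunit Ncapg differed by 1.51, the cytokinesis factor Ect2 by 1.50 and the separase Espl1 by 1.48.

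**Figure D3:**
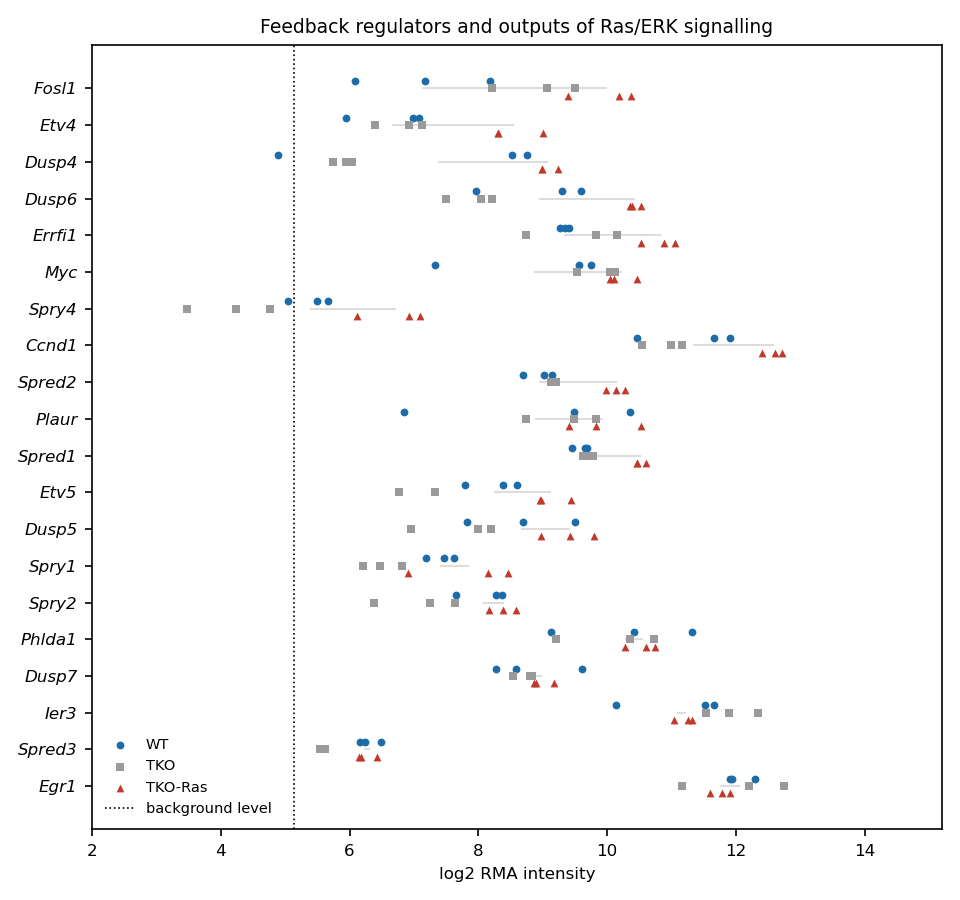
Log2 RMA intensity (x axis) on each array for the 20 measured members of the Ras/ERK list, ordered by their difference between TKO-Ras and WT, with WT as circles, TKO as squares, TKO-Ras as triangles and the background level dotted. For Spry4 and Etv5 the TKO arrays lie to the left of WT and the TKO-Ras arrays to the right of it.

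The feedback regulators and outputs of Ras/ERK signalling were higher in part. Of 20 members measured, 8 were higher than in WT, none was lower and 12 did not pass, against 19.4% higher and 14.3% lower over all genes, and their median was 0.96. Against TKO, 11 of 20 were higher (median 1.15) where 3.19% of all genes were. In TKO against WT 1 was higher and 3 were lower (median −0.15), against 13.6% and 9.9% of all genes. Dusp6, a phosphatase that switches ERK off, stood at 9.30, 9.60 and 7.96 in WT, at 8.21, 8.04 and 7.50 in TKO and at 10.38, 10.53 and 10.35 in TKO-Ras. Its difference was 1.47 from WT (SE 0.448, adjusted p = 0.03) and 2.50 from TKO (adjusted p = 0.0074). TKO-Ras was thus the highest group for Dusp6, and TKO had a lower mean than WT without passing the test (−1.03, adjusted p = 0.14).

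Some further inhibitors of the pathway were also higher, while Spry1, Spry2, Spred3, Dusp5 and Dusp7 did not pass against WT. Spry4 differed by 1.31 from WT (adjusted p = 0.035) and was at least 2.99-fold above TKO, where it was at background. Spred1 differed by 0.91 from WT and 0.80 from TKO, and Spred2 by 1.17 and 0.96, and all 3 passed both tests. Errfi1, an inhibitor of the EGF receptor, was 1.47 above WT (adjusted p = 0.0074), and its 1.24 over TKO did not pass (adjusted p = 0.06). The phosphatase Dusp4 stood at 8.52, 8.75 and 4.89 in WT and at 9.23, 8.99 and 8.99 in TKO-Ras, which with this spread did not pass (1.68, adjusted p = 0.14), although it did against TKO (3.16, adjusted p = 0.041). Among the transcription factors, the Fos-related Fosl1 differed by 2.84 from WT (adjusted p = 0.0027) and Etv4 by 1.87 (adjusted p = 0.0038), while the immediate early gene Egr1 differed by −0.28 (adjusted p = 0.58) and Myc by 1.32 (adjusted p = 0.078). Cyclin D1 (Ccnd1), which links ERK to the cell cycle, stood at 11.66, 11.91 and 10.47 in WT and at 12.60, 12.40 and 12.72 in TKO-Ras (difference 1.23, adjusted p = 0.02). The count of 8 fell to 6 without WT replicate 3 or TKO-Ras replicate 3 and to 5 without TKO-Ras replicate 1.

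Receptors and ligands upstream of Ras moved in both directions. Of 31 receptor tyrosine kinases, 3 were higher and 10 lower, and of 26 secreted growth factors, 6 were higher and 8 lower (3 higher without TKO-Ras replicate 1). Over all genes these shares were 19.4% higher and 14.3% lower. The receptors that rose were Epha2 (2.18, adjusted p = 0.00086), the neuregulin receptor Erbb3 (at least 2.62-fold, from background in WT) and the HGF receptor Met (1.42), and each of these also passed against TKO. Epha4 was at least 23-fold lower and the PDGF receptor Pdgfrb differed by −2.53. Kitl, the ligand of Kit, stood at 6.94, 6.68 and 7.0 in WT and at 10.83, 11.04 and 10.90 in TKO-Ras (difference 4.05, adjusted p = 2.2e-07) and was at a similar level in TKO. Of the ligands that fell, Tgfb2 differed by −4.38 from WT and −2.50 from TKO (adjusted p = 0.0015), and Gas6, the ligand of Axl, by −4.74 from WT. Igf2 stood at 11.37, 8.56 and 14.13 in WT and at 6.52, 7.01 and 6.87 in TKO-Ras, a difference of −4.56 (SE 1.06, adjusted p = 0.0075) with a wide WT spread.

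The inhibitors of the cyclin D kinases moved in both directions. Cdkn2a, which encodes p16 and p19Arf, stood at 12.08, 11.20 and 12.98 in WT, at 6.20, 6.10 and 4.07 in TKO and at 4.30, 3.92 and 3.27 in TKO-Ras, at least 124-fold below WT. Its neighbour Cdkn2b (p15) stood at 10.49, 10.58 and 10.57 in WT and at 3.87, 4.21 and 4.48 in TKO-Ras, at least 42.6-fold lower. Mtap, next to Cdkn2a on the other side on chromosome 4 and named after its value was seen, was 1.79 higher than in WT (adjusted p = 3.2e-06). Cyclin D2 (Ccnd2) differed by −4.55 from WT and −1.63 from TKO (adjusted p = 0.023), opposite in sign to cyclin D1. Of the 10 genes in the list of kinase inhibitors, G1 cyclins and their kinases, 4 were lower, namely Cdkn2a, Cdkn2b and the cyclins Ccnd2 and Ccnd3 (−1.44), and 1 was higher, the inhibitor Cdkn2d (0.80), against 14.3% and 19.4% of all genes. Another inhibitor, Cdkn2c (p18), was 1.65 higher, and Cdkn1a (p21), with 9.70 to 11.84 in WT and 10.99 to 11.24 in TKO-Ras, did not pass (0.10, adjusted p = 0.89).

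Targets of p53 showed no common direction. Of 26 measured, 4 were lower, 1 was higher and 21 did not pass, and their median was −0.05, where 14.3% of all genes were lower and 19.4% higher. Fas, a death receptor, stood at 7.64, 7.80 and 8.53 in WT and at 5.83, 5.71 and 6.04 in TKO-Ras (difference −2.13, adjusted p = 7.8e-05) and differed from TKO by −2.82 (adjusted p = 7.4e-05). Btg2, an antiproliferative gene, differed by −1.86 and the stress kinase Plk3 by 1.30. The number of lower members was 10 without WT replicate 3, and 2 without TKO-Ras replicate 1 or TKO-Ras replicate 3. In the Bcl2 and caspase list 4 of 19 were higher and 2 lower, and the calls did not sort by role. The death inducer Bcl2l11 (Bim) differed by −1.54 (adjusted p = 0.009) and the death-promoting Bok by 0.99 (adjusted p = 0.033). The survival gene Bcl2l1 (Bcl-xL) differed by 0.99 (adjusted p = 0.017) and its relative Bcl2l2 by −0.83 (adjusted p = 0.00018). Bid and Cycs were the other higher members. Of the higher calls, 1 was left without TKO-Ras replicate 1 or TKO-Ras replicate 3 and 2 without TKO-Ras replicate 2.

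**Figure D4:**
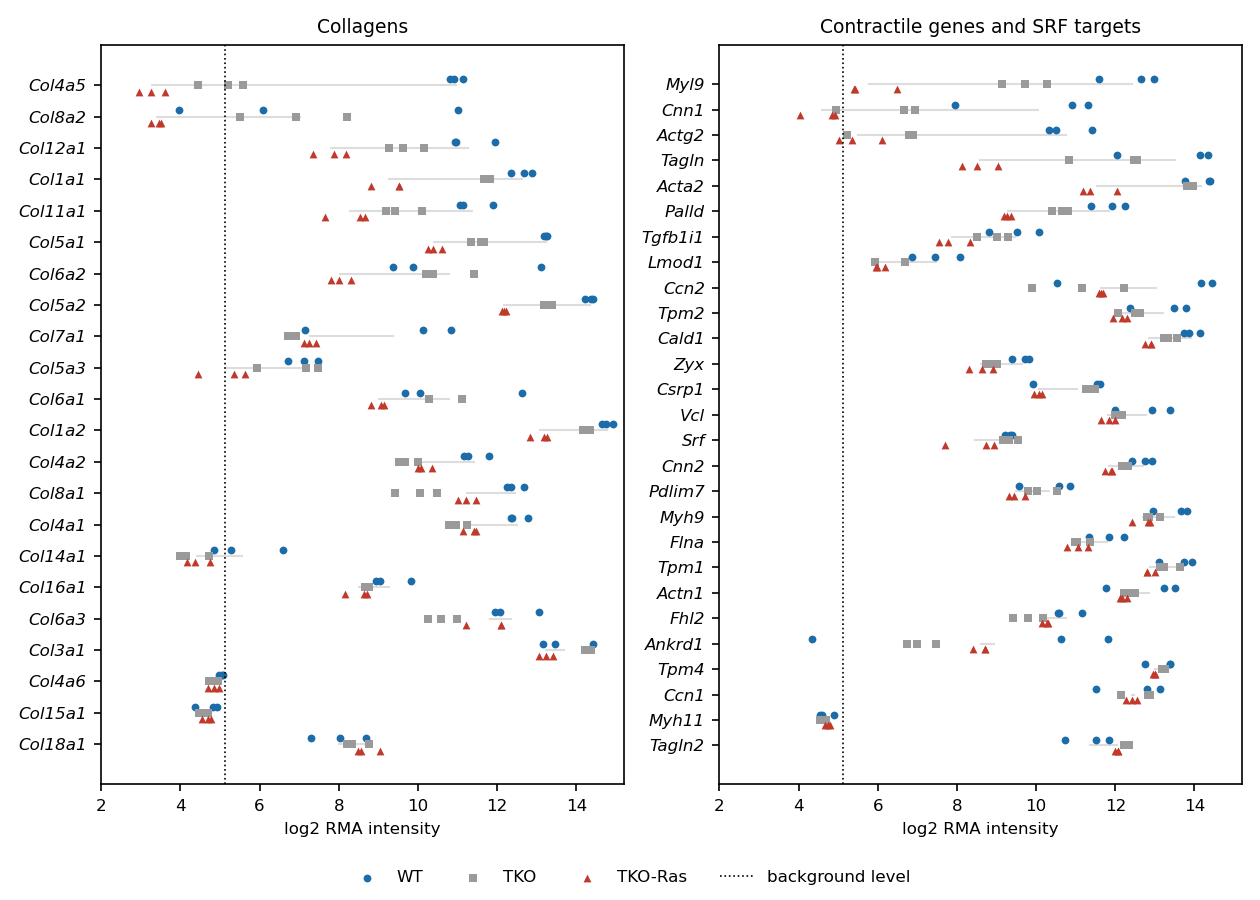
Log2 RMA intensity (x axis) on each array for 22 collagens (left) and 27 contractile genes and SRF targets (right), ordered by the difference between TKO-Ras and WT, with symbols as WT circles, TKO squares and TKO-Ras triangles and the background level dotted. Most TKO-Ras triangles lie to the left of the WT circles, as for Col1a1 (8.82 to 9.52 against 12.34 to 12.88) and Myl9 (5.40 to 6.48 against 11.59 to 12.98).

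The extracellular matrix genes were lower as a group. Of 22 collagens, 16 were lower than in WT and none was higher (median −1.73), and of 36 matrix glycoproteins and proteoglycans, 21 were lower and none higher (median −1.50), against 14.3% lower over all genes. Without WT replicate 3, 15 collagens were lower and 1 was higher. Against TKO, 9 of 22 collagens were lower and 2 higher, and 12 of 36 glycoproteins were lower and 1 higher, against 4.17% and 3.19% of all genes. Col1a1, a chain of the main fibrillar collagen, stood at 12.34, 12.67 and 12.88 in WT, at 11.68, 11.72 and 11.81 in TKO and at 9.52, 9.51 and 8.82 in TKO-Ras. It differed by −3.35 from WT (SE 0.186, adjusted p = 3.8e-07) and by −2.45 from TKO (adjusted p = 2.4e-05). The groups formed 3 separate levels in that order.

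Not all collagens followed Col1a1. Col3a1 did not pass against WT (−0.45), and Col8a1 and Col6a3 were higher in TKO-Ras than in TKO by 1.25 and 1.20. Among the glycoproteins, tenascin C (Tnc) differed by −3.90 from WT with most of it present in TKO, the TGF-beta-binding Ltbp2 was at least 44.7-fold lower, and the proteoglycan Ogn differed by −4.43 from WT and −3.55 from TKO. Fibrillin-2 (Fbn2) stood at 9.30, 8.53 and 13.25 in WT, at 9.61, 11.25 and 11.46 in TKO and at 6.63, 6.07 and 5.60 in TKO-Ras, a difference of −4.26 (SE 0.966, adjusted p = 0.0066). Decorin (Dcn) and the microfibril protein Mfap5 had their highest means in TKO and were 3.49 and 3.17 lower on the log2 scale in TKO-Ras than there, without passing against WT.

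Proteases that cut the matrix changed with opposite signs. Of 25 proteases and inhibitors, 4 were higher and 12 lower than in WT, against 19.4% and 14.3% of all genes. The collagenase Mmp13 stood at 3.65, 3.31 and 4.06 in WT, at 8.08, 10.70 and 11.22 in TKO and at 6.11, 7.02 and 8.16 in TKO-Ras, at least 3.90-fold above WT and 2.90 below TKO on the log2 scale (adjusted p = 0.033). The gelatinase Mmp2 stood at 12.07, 12.17 and 12.63 in WT and at 8.35, 8.53 and 7.93 in TKO-Ras (difference −4.02, adjusted p = 1.2e-06). Serpinf1 (PEDF), a secreted inhibitor of vessel growth, differed by −4.13 from WT and −3.38 from TKO (adjusted p = 0.00036).

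Many contractile genes and targets of the serum response factor SRF were also lower. Of 27 measured, 17 were lower and 1, Tagln2, was higher (median −0.95), against 14.3% and 19.4% of all genes, and the number lower was 11 without WT replicate 1 or WT replicate 2 and 23 without WT replicate 3. Myl9, the regulatory myosin light chain, stood at 12.64, 12.98 and 11.59 in WT, at 9.71, 10.27 and 9.13 in TKO and at 5.40, 5.43 and 6.48 in TKO-Ras (difference −6.64, SE 0.394, adjusted p = 6.2e-07). Tagln differed by −4.94 from WT and −3.39 from TKO (adjusted p = 0.0065), and smooth muscle actin Acta2 by −2.64 and −2.35 (adjusted p = 0.00011). The calponin Cnn1 was at least 30.2-fold lower than in WT and Srf itself differed by −0.86. Smooth muscle myosin Myh11 was at background throughout. The Tagln2 call was lost without any array other than WT replicate 2.

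Among adhesion receptors and junctions, 6 of 33 were higher and 11 lower, against 19.4% and 14.3% of all genes. The laminin-binding integrin subunit Itga6 stood at 9.21, 8.63 and 8.58 in WT, at 9.53, 9.52 and 8.72 in TKO and at 12.51, 12.70 and 12.82 in TKO-Ras, a difference of 3.87 from WT (SE 0.236, adjusted p = 7.8e-07) and 3.42 from TKO (adjusted p = 1.3e-05). Itga3, its close relative, was 1.43 and 1.24 higher. The subunits Itga8 and Itga1 were at least 15.5-fold and 7.24-fold lower than in WT, and neither passed against TKO. The shared beta subunit Itgb1 differed by −1.09 from WT and by 0.01 from TKO.

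**Figure D5:**
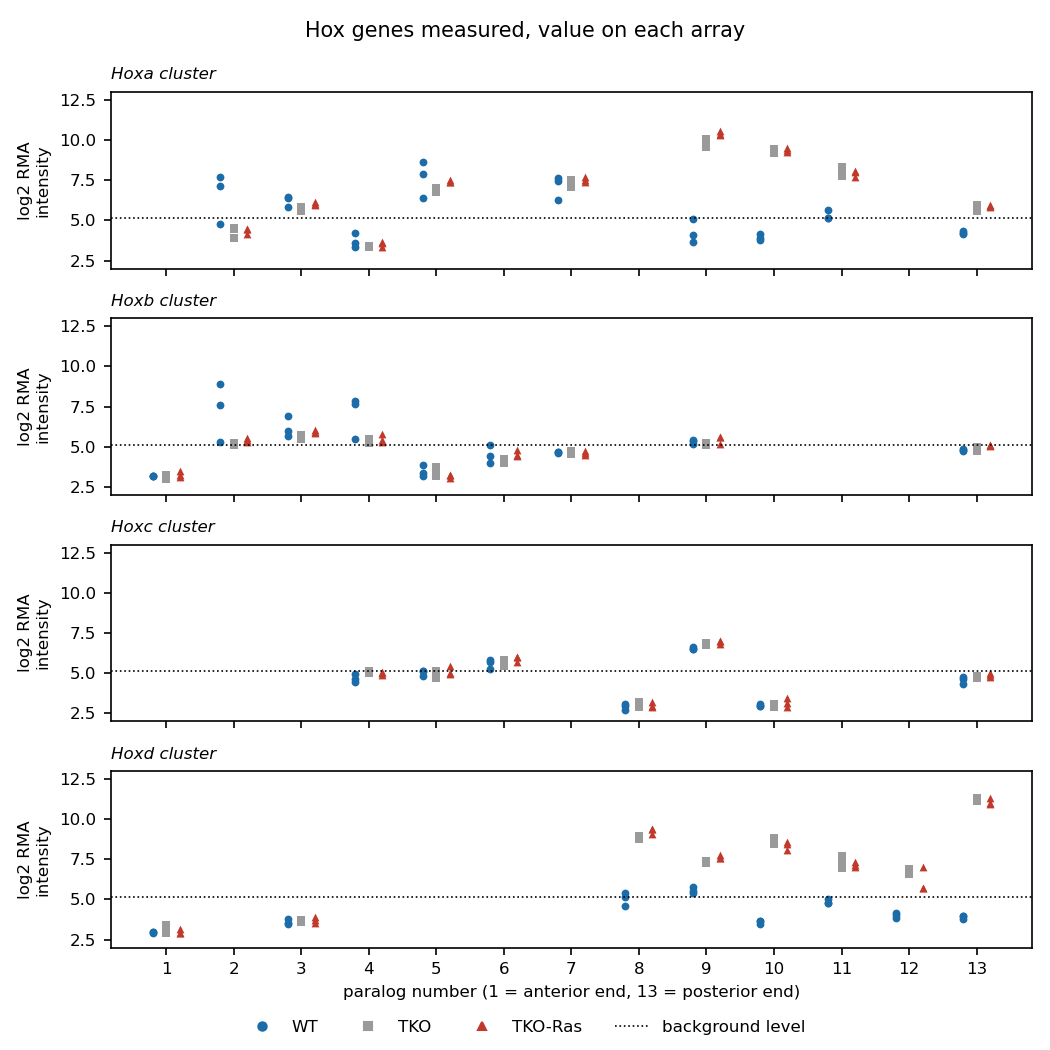
Log2 RMA intensity (y axis) on each array for the 33 Hox genes measured, by paralog number (x axis) in the 4 clusters, with WT as circles, TKO as squares, TKO-Ras as triangles and the background level dotted. In the Hoxa and Hoxd clusters the genes from paralog 8 onward are near background in WT and between 5.69 and 11.31 in TKO-Ras.

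Hox genes, which give cells a position along the body and limb axes, changed by cluster. Of 33 measured, 11 were higher and 3 lower, against 19.4% and 14.3% of all genes. The higher genes were all 4 measured posterior genes of Hoxa (paralogs 8 to 13, median 4.04), all 6 of Hoxd (median 3.26) and 1 of 4 of Hoxc, and none of 2 of Hoxb passed. Hoxd10 stood at 3.63, 3.45 and 3.66 in WT and at 8.60, 8.44 and 8.07 in TKO-Ras, at least 9.44-fold higher. Hoxa2, Hoxb2 and Hoxb4, at the anterior end, were lower, but all 3 calls were lost when any array other than WT replicate 3 was left out, and WT replicate 3 was near background for each of them (4.80, 5.32 and 5.50). None of the 33 passed between TKO-Ras and TKO, against 3.19% higher and 4.17% lower over all genes.

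Other regulators of mesenchyme were split as well. Of 39 transcription factors, 6 were higher and 11 lower, against 19.4% and 14.3% of all genes. Pitx1, a factor of the hindlimb, stood at 4.92, 5.05 and 5.14 in WT and at 8.27, 7.99 and 8.02 in TKO-Ras (difference 3.06, adjusted p = 5.3e-08), and Lhx2, of the limb bud, was at least 1.86-fold higher. Foxd1 differed by −5.27 from WT and −2.37 from TKO (adjusted p = 0.0018). Snai2 (Slug) differed by −1.55 from both, whereas Twist2 was 1.78 higher than in WT. The position along the body from which each culture was taken was not given in the sources used here.

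Imprinted genes, expressed from 1 parental allele, included more called lower than higher. In the Dlk1-Dio3 region, Meg3 stood at 12.83, 12.94 and 12.75 in WT and at 6.03, 5.72 and 6.34 in TKO-Ras (difference −6.81, SE 0.205, adjusted p = 9.1e-09), with 11 of 11 probe sets lower, and Rian, a second long noncoding RNA of the region, was at least 60.9-fold lower. All 4 measured genes of the region were lower and none passed against TKO. Of 22 other imprinted genes, 9 were lower and 2, Phlda2 (1.06) and Slc38a4 (1.71), were higher, against 14.3% and 19.4% of all genes. Grb10, an adaptor that damps insulin signalling, differed by −4.48, Ndn by −4.60, Peg3 by −3.16 and Plagl1 by −2.70. Of these Ndn alone passed against TKO (−1.23, adjusted p = 0.044). The Grb10 arrays did not overlap between TKO (8.60, 8.52 and 8.72) and TKO-Ras (7.0, 8.41 and 7.45). Its WT arrays were widely spread (12.98, 13.16 and 10.17). Of the DNA methyltransferases, the maintenance enzyme Dnmt1 was 1.46 higher than in WT (adjusted p = 5.7e-06) and 0.19 above TKO (adjusted p = 0.42), and the de novo enzyme Dnmt3a stood at 7.89, 8.10 and 8.67 in WT and at 6.98, 6.49 and 6.46 in TKO-Ras (difference −1.58, adjusted p = 0.00036). Dnmt3a also differed from TKO, by −1.21 (adjusted p = 0.0096).

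Most secreted inflammatory genes did not differ from WT beyond the test, although many had been higher in TKO. Of 29 chemokines, cytokines and NF-kB targets, 2 were higher and 2 lower in TKO-Ras than in WT, against 19.4% and 14.3% of all genes. Without WT replicate 3, 3 were higher and 4 lower. Of the 29, 8 were at background on every WT and TKO-Ras array. In TKO against WT, 11 were higher and 1 lower, against 13.6% and 9.9% of all genes. In TKO-Ras against TKO, 11 were lower, against 4.17% of all genes. The neutrophil chemokine Cxcl1 stood at 9.32, 8.74 and 9.40 in WT, at 12.05, 13.52 and 13.34 in TKO and at 7.75, 8.43 and 8.47 in TKO-Ras, a difference from TKO of −4.76 (adjusted p = 8.5e-05). Ccl2 stood at 9.22, 7.95 and 8.11, at 11.47, 12.87 and 12.64 and at 9.07, 8.77 and 9.67 in the same order, and overlapped between WT and TKO-Ras. Cxcl5 stood at 3.50, 3.28 and 4.92 in WT, at 12.13, 13.14 and 12.95 in TKO and at 5.72, 7.02 and 6.68 in TKO-Ras, at least 2.53-fold above WT and 6.27 below TKO on the log2 scale.

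Some members of the list did not follow. Il33, an alarmin of stromal cells, was 4.65 above WT (adjusted p = 0.0011) and 2.80 above TKO without passing (adjusted p = 0.065). Cxcl12, the chemokine that holds progenitor cells in place, fell at each step, with 13.49, 13.92 and 12.16 in WT, 10.90, 12.12 and 11.60 in TKO and 8.26, 9.04 and 8.19 in TKO-Ras (difference from WT −4.69, adjusted p = 2.5e-05). Tnfaip3 (A20), which limits NF-kB, differed by −2.30 from WT.

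Interferon-response genes were often lower in TKO-Ras, against 14.3% of all genes. Of 22 measured, 9 were lower and 1 was higher than in WT (median −1.27). Against TKO 4 were lower, where 4.17% of all genes were. The GTPase Gbp2 was at least 5.26-fold lower and Irgm1 differed by −2.26, Ifit3 by −2.28 and Xaf1 by −2.25. For Gbp2 and Ifit3 the WT replicate 3 arrays were the highest, at 9.17 and 10.25, with the other WT arrays at 6.62 to 6.79 and 7.84 to 7.99. In MHC class I processing, 4 of 12 were lower and none higher, against 14.3% and 19.4% of all genes. The lower genes included the peptide transporter Tap1 (−1.43, adjusted p = 0.0046) and the light chain B2m (−0.78, adjusted p = 0.0021).

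In the Wnt pathway, 3 of 32 genes were higher and 11 lower, against 19.4% and 14.3% of all genes. Wnt5a, a noncanonical ligand of mesenchyme, stood at 9.78, 9.91 and 10.62 in WT and at 3.16, 3.35 and 3.46 in TKO-Ras, at least 31.4-fold lower, with 3.36 to 4.06 in TKO. The Wnt agonist Rspo2 stood at 12.09, 11.63 and 12.46 in WT, at 11.81, 12.54 and 12.50 in TKO and at 8.32, 7.96 and 8.15 in TKO-Ras, and was low on the TKO-Ras arrays alone (difference from TKO −4.14, adjusted p = 3.4e-06). The Wnt inhibitor Dkk2 was 4.29 above WT and 3.94 above TKO (adjusted p = 0.0014). In the TGF-beta and BMP pathway 2 of 29 were higher and 7 lower, with Bmp2 at least 8.62-fold higher and the inhibitory Smad6 differing by −1.74.

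The metabolic genes that passed were mostly higher. Of 19 genes of glycolysis, 10 were higher and 2 lower, against 19.4% and 14.3% of all genes (median 0.70; 1 lower without WT replicate 3 or TKO-Ras replicate 3). The glucose transporters Slc2a3 and Slc2a1 were 2.63 and 1.36 higher, the lactate transporter Slc16a1 1.93 higher and lactate dehydrogenase Ldha 0.82 higher. Pfkfb3, an activator of phosphofructokinase, went the other way, with 7.72, 7.12 and 9.15 in WT and 5.04, 4.82 and 4.45 in TKO-Ras, at least 7.27-fold lower. Of 20 genes of serine, one-carbon and glutamine metabolism, 6 were higher and none lower, with Shmt1 2.27 and Mthfd1 1.49 higher, and Phgdh, the first enzyme of serine synthesis, at 12.94 to 13.27 in WT and 13.09 to 13.24 in TKO-Ras. In the insulin-like growth factor axis, 2 of 10 were higher and 3 lower (1 to 4 higher when 1 array was left out), Igfbp6 being 4.33 higher and Igfbp7 differing by −4.23.

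The fetal genes Hmga2 and Igf2bp3 changed in opposite directions. Hmga2, a chromatin protein of embryonic growth, stood at 12.54, 12.05 and 11.35 in WT and at 13.20, 13.02 and 13.49 in TKO-Ras (difference 1.26, adjusted p = 0.021), and was 1.80 above TKO (adjusted p = 0.013). Igf2bp3, an RNA-binding protein of the embryo, differed by −3.49 from WT and −1.82 from TKO (adjusted p = 0.028). Klf5 was 3.10 above WT. Of 19 oncofetal and pluripotency genes, 5 were higher and 1 was lower, against 19.4% and 14.3% of all genes, and Pou5f1, Lin28a, Lin28b and Prdm14 were at background on every WT and TKO-Ras array.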

How the data were processed

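Total RNA (100 ng per array) was hybridised to MOE430 2.0 arrays. The deposited values are log2 intensities that the authors made with RMA in Partek 6.5, and no count or depth underlies them; the number of arrays limits the precision. Of 45101 probe sets, 64 control probe sets were left out. Of the rest, 34945 were assigned to 1 gene, 932 to several and 9160 to none, and 34741 matched RefSeq (GRCm38.p6). The probe set whose mean over the 12 arrays was highest stood for its gene. limma 3.58.1 (R 4.3.3) fitted 4 group means to all 12 arrays, with eBayes and Benjamini-Hochberg adjustment over 45037 probe sets. The genes named were the 12 largest increases and the 12 largest decreases the deleted genes, Nras, Meg3 and Dnmt1, up to 4 called members of each list (6 for lists with over 20 called) by size of change, up to 5 genes each way called oppositely in TKO, and the most abundant markers of other cell types, where the first 2 kinds and the list members had no overlap of the groups; genes outside this rule were chosen after their values were seen. The members and lists were chosen with earlier results of these data known. Alternatives were array weights, unmoderated contrasts, a replicate block, other normalizations, probe set choices and background levels, and leaving out each array. The code was tested on simulated data.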

Additional observations from a re-analysis of the deposited data

Results flagged for a closer look

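Some genes passed in opposite directions in TKO and in TKO-Ras, each against the same WT arrays. There were 21 genes higher in TKO and lower in TKO-Ras and 6 the other way round. Genes picked in this way must differ between TKO-Ras and TKO, so the direct test below gives sizes and is no further support. Several calls against WT were near the threshold. For TKO-Ras against WT the adjusted p was 0.048 for Lxn, 0.044 for Acot1, 0.039 for Nsg1, 0.028 for Mgst1 and 0.002 for Pde4d. The values of TKO-Ras against TKO follow for the named genes. Mgst1, a membrane glutathione transferase, differed by −2.64 (adjusted p = 0.0014), Nsg1 by −3.06 (adjusted p = 7.1e-05), the acyl-CoA thioesterase Acot1 by −2.56 (adjusted p = 0.00027), the phosphodiesterase Pde4d by −1.72 (adjusted p = 6.2e-05) and Lxn by −1.81 (adjusted p = 0.0023). Nol4 differed by 2.61 (adjusted p = 1.6e-05), the sulfotransferase Chst15 by 2.89 (adjusted p = 4.7e-05), the semaphorin Sema3c by 2.28 (adjusted p = 0.0015), Chic1 by 1.52 (adjusted p = 0.00067) and the ubiquitin ligase Wwp1 by 1.02 (adjusted p = 0.00043).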

How the results depend on the processing

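The direction and the side of the threshold held for 2455 of 2537 values of the 160 named genes under the alternatives, 75 lost their call, 5 gained one and 2 reversed: with only probe sets without a suffix, Fabp4 was at 0.12 and Mgst1 at 0.19. Of 1312 list counts, 1165 stayed within 1.5 times. The 8 higher Ras/ERK genes became 5 without moderation of the variance and ranged from 5 to 9 when 1 array was left out. The 17 lower contractile genes became 11 with only the 2 groups compared and ranged from 11 to 23 when 1 array was left out. The cause was not tested. With a replicate block, the genes called higher numbered 3453 and the genes called lower 2585. Same-numbered arrays deviated together at r = 0.056, −0.013 and −0.116. No pairing by number was seen, but so few arrays cannot exclude one. Genes at background have only bounds.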
